A study of Homo sapiens with 6 samples.

Results

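The 43 genes described here serve DNA replication and nucleotide supply in HaCaT cells, and they were followed after knockdown of IQGAP2. They were taken by symbol from a list that follows the steps of replication, and all 43 were found among the 12829 genes of the deposited table. HaCaT is an immortal, aneuploid human keratinocyte line. In 3 libraries the cells carried a short hairpin RNA against IQGAP2, a scaffold protein that binds actin and calmodulin, and their labels give the genotype as IQGAP2 knockdown. In the other 3, the control libraries, they were labelled normal control with the genotype WT. All were grown in DMEM with 10% serum. The labels do not give the number of hairpins or clones, or whether control cells carried a non-targeting hairpin. They speak of biological replicates without naming separate cultures, so the p-values measure spread among these libraries only, and that spread may be technical.

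Before a cell copies its DNA, the origin recognition complex, CDC6 and CDT1 load the MCM2-7 ring onto origins, a step called licensing. At the start of S phase, cyclin E with its kinase helps to fire these origins, CDC45 and GINS turn the ring into an active helicase, and polymerases alpha, delta and epsilon copy the strands with the sliding clamp PCNA, which RFC loads. FEN1 and LIG1 then join the fragments of the lagging strand, while ribonucleotide reductase, thymidylate synthase and thymidine kinase supply nucleotides. Most of these genes are textbook targets of E2F transcription factors, which RB family proteins hold in check, and in the epidermis they mark the dividing keratinocytes of the basal layer.

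Expression was deposited as FPKM, a read count scaled for gene length and library total. The reads behind the values could be recovered and summed to 12901037 to 15360758 in the knockdown libraries and 13957447 to 15122470 in the control libraries. IQGAP2 itself had 2, 4 and 2 reads in knockdown replicates 1, 2 and 3, against 24, 22 and 21 in control replicates 1, 2 and 3. Its level was 0.0235 ± 0.00808 FPKM in the knockdown, 12% of the 0.196 ± 0.00547 FPKM of the control (SD, n = 3 each, as for every mean ± SD given). The exact two-sided permutation p was 0.1, the smallest that 3 libraries against 3 allow. Knockdown replicate 2 stood apart: over 6075 genes averaging 500 reads or more its median absolute log2 difference from the other knockdown libraries was 0.115 and 0.121, against 0.052 between knockdown replicates 1 and 3 and 0.0482 to 0.0511 between control libraries. All 6 keratinocyte markers looked up were well expressed, with means of 78.3 FPKM or more. Of 19 markers of fibroblasts, melanocytes, leukocytes and endothelium 7 were in the table, and these summed to 2.8 to 3.26 FPKM in the knockdown libraries and 5 to 5.57 FPKM in the control libraries. LUM, a fibroblast marker, made most of that gap, at 0.268 FPKM in the knockdown and 2.21 FPKM in the control, and its part in the results below was not tested. The other fibroblast markers in the table went both ways. COL1A1 had 1.44 FPKM in the knockdown and 1.24 FPKM in the control, and DCN had 0.0426 FPKM and 0.207 FPKM.

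As deposited, more replication genes fell than rose in the knockdown, by modest amounts. Of the 43, 20 fell and 3 rose past the test, and 20 did not pass. The test was limma on log2(FPKM + 1) over the 11214 genes that averaged 0.5 FPKM or more, with Benjamini-Hochberg adjustment over all of them and a threshold of 0.05. The 3 that rose were CDC6, the cyclin E gene CCNE2 and UNG. Over all genes tested 57.4% were called, so the 53.5% called among the 43 are near the background. In direction, 46.5% of the replication genes were called lower against 27.8% of all genes tested, and 6.98% were called higher against 29.5%. The median log2 change, taken as knockdown minus control of log2(FPKM + 1), was -0.16 over the 43 genes and 0.01 over all genes tested. Genes that fell stood at 50.8% to 91.8% of their control mean, and 0 of them fell by over 2-fold. Knockdown and control values did not overlap for 23 genes below control and 4 above it, together 62.8%, against 65.1% of all genes tested. In RNA from whole cultures, fewer cells in S phase and less RNA per cell cannot be told apart.

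The count depended on scaling. The FPKM of the whole table summed to 234624 to 248082 in the knockdown libraries and 271372 to 274709 in the control libraries. With each library rescaled to a common sum the median change of all genes was 0.14 in place of 0.01, and 14 of the 43 genes were lower and 8 higher. That is 32.6% lower against 16.4% of all genes tested under the same scaling, and 18.6% higher against 43.4%. Lower genes then made up 63.6% of the calls among them, against 87% as deposited. With a common sum the median log2 change of the replication genes was -0.01, against -0.16 as deposited. It still lay 0.15 below that of all genes, against 0.16 as deposited. Without knockdown replicate 2, 26 were lower and 3 higher, with MCM2, MCM4, RRM1, RRM2, TYMS and E2F2 added to the lower ones. Of all genes tested 28.6% were then lower and 29% higher. Calls also varied with level: at or above 15.3 FPKM, the median level of the 43, 13 of 22 replication genes fell, against 40.6% of all genes at such levels. Below it 7 of 21 fell, against 23.1%.

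**Figure D1:**
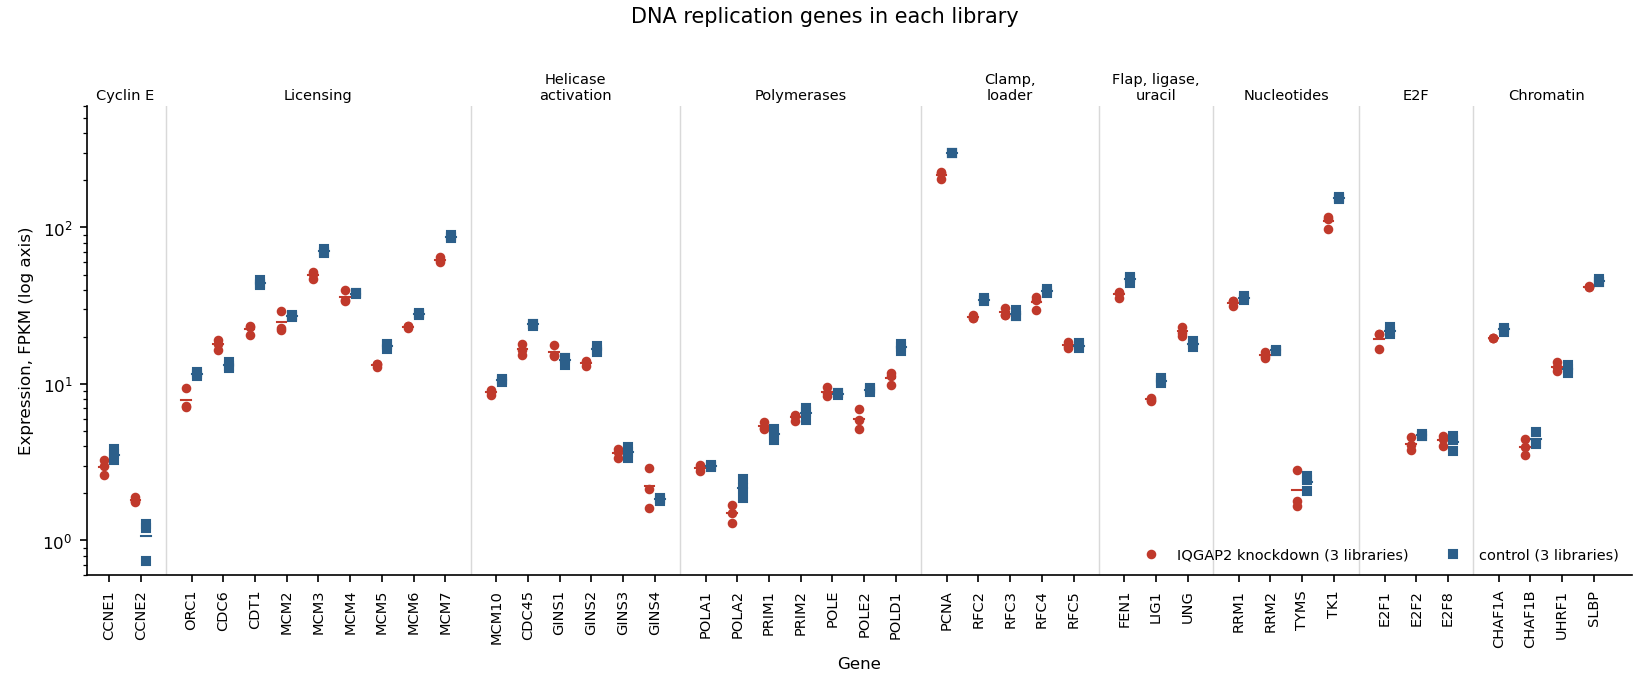
FPKM on a log axis of each of the 43 genes in each library, ordered by step of replication, with knockdown libraries as red circles left of control libraries as blue squares and short lines for group means. PCNA is the most abundant, with means of 217 FPKM in the knockdown and 299 FPKM in the control libraries, and CCNE2 the least, with means of 1.82 FPKM and 1.07 FPKM.

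**Figure D2:**
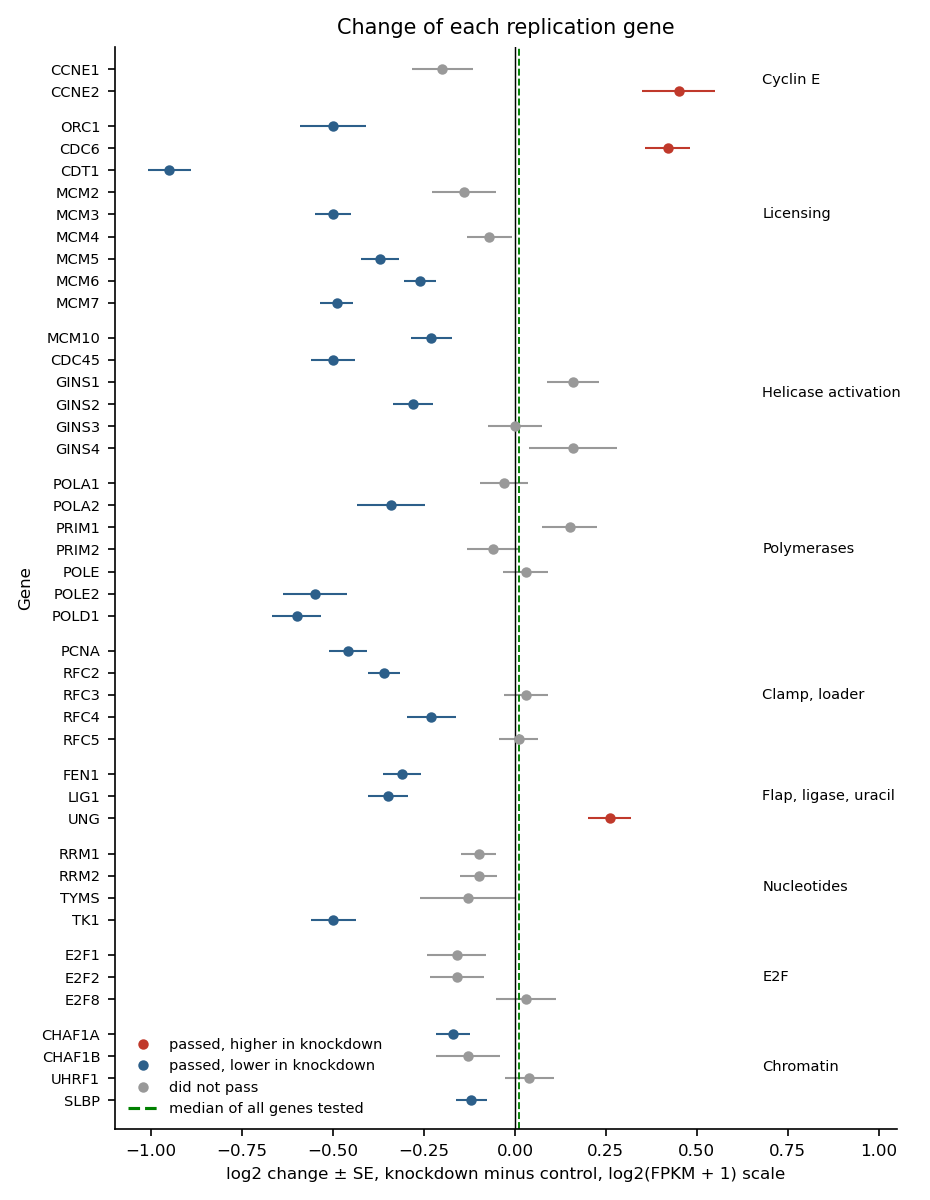
Log2 change (knockdown minus control, log2(FPKM + 1) scale) of each gene with its standard error from limma, coloured by whether it passed the test. CDT1 lies farthest below 0, at -0.95, and CCNE2 farthest above it, at 0.45.

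Many of the promoters of these genes share an E2F element. Promoters here run from 250 bases before to 50 bases after the annotated RefSeq start (GRCh38.p14), and 38 of the 43 genes had one in the table used. The letters TTTCCCGC, TTTCGCGC, TTTGCCGC or TTTGGCGC, on either strand, stood in 20 of these 38 (52.6%), against 5.66% of 9111 promoters of genes tested and 3.33% of all 27305 promoters of this length. They stood in 9 of 19 promoters of genes that fell, in 1 of 2 of genes that rose and in 10 of 17 of genes that did not pass. Only these strings were searched. Other forms of the element were not counted, so the split by outcome may depend on that choice. The CHR letters TTTGAA or TTCGAA, on either strand and known from genes of mitosis, stood in 2 of the 38, against 10.9% of promoters of genes tested. No search string holds another, and a match is a description of the sequence that does not show binding. The promoters of 5 genes are printed 5' to 3' on the strand of the gene, with the E2F letters in capitals, because these genes cover the outcomes: CDC6, which rose, CDT1, PCNA and MCM7, which fell, and MCM2, which did not pass.
CDC6 (chr17:40287629-40287928, plus strand): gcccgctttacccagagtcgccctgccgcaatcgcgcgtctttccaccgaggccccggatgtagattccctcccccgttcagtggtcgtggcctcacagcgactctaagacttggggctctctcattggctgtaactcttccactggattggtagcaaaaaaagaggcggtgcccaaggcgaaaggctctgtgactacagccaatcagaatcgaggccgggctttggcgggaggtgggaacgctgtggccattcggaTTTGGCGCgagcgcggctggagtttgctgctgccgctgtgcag
CDT1 (chr16:88803539-88803838, plus strand): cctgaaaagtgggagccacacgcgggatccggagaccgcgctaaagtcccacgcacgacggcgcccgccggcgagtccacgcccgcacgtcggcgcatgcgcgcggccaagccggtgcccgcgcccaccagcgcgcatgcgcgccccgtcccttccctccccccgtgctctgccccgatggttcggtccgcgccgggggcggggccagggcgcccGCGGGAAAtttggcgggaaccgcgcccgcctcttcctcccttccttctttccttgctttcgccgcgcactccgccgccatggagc
PCNA (chr20:5126573-5126872, minus strand): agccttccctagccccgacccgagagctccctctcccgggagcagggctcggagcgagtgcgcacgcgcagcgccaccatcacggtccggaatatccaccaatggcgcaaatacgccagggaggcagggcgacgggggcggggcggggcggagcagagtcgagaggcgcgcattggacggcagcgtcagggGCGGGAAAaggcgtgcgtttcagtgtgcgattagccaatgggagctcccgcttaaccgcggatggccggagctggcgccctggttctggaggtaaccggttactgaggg
MCM7 (chr7:100101348-100101647, minus strand): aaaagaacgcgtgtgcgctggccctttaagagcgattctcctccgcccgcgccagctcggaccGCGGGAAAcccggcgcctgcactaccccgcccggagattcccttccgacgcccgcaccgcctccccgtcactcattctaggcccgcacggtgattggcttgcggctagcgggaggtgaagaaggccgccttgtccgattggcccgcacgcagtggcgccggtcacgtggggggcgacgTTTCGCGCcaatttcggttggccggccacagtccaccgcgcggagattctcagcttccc
MCM2 (chr3:127598161-127598460, plus strand): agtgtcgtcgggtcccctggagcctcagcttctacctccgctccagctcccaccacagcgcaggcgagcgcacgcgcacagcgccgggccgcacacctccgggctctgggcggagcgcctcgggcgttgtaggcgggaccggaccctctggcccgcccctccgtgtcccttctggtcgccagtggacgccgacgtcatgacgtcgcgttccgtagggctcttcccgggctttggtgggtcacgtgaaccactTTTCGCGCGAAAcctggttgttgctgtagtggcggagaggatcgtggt
In CDC6 the letters begin 7 bases downstream of the annotated start, and in CDT1 and PCNA they begin 35 and 59 bases upstream of it. MCM7 holds them at 187 and 9 bases upstream. In MCM2 a pair of overlapping matches on opposite strands begins 2 and 6 bases downstream of the start. All 5 printed promoters hold the letters, which stand in only 20 of the 38, so these 5 cannot show how the letters go with outcome. Of the 2 promoters of genes that rose, CDC6 holds them and UNG does not.

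**Figure D3:**
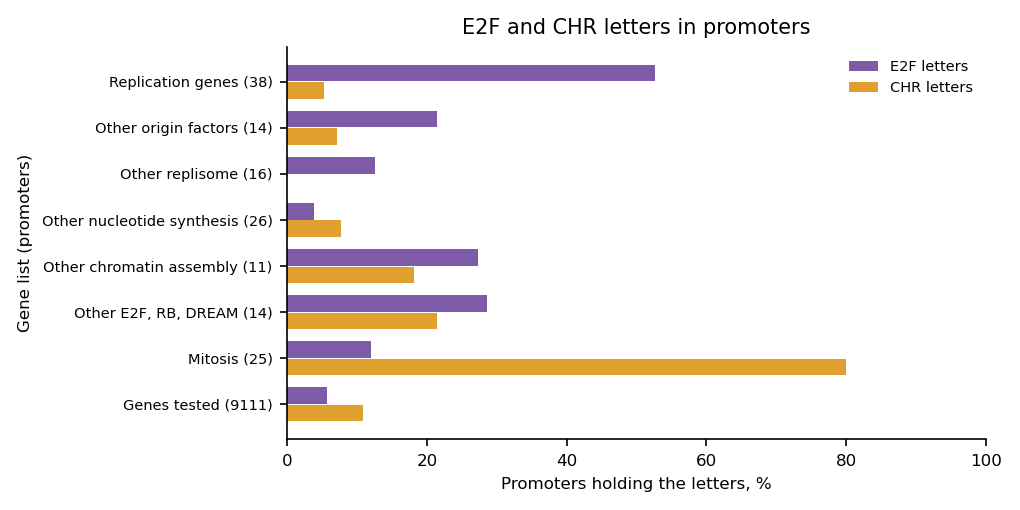
Percentage of promoters that hold the E2F letters (purple) or the CHR letters (orange), for replication genes, the other lists and all genes tested, with the number of promoters in brackets. E2F letters stand in 52.6% of promoters of replication genes and 12% of promoters of mitosis genes, and CHR letters in 5.26% and 80%.

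Cyclin E, which with CDK2 drives cells into S phase, is made from a pair of genes with different values. CCNE2 had 1.77, 1.79 and 1.89 FPKM in knockdown replicates 1, 2 and 3, against 1.21, 1.27 and 0.744 FPKM in control replicates 1, 2 and 3, so that every knockdown library was above every control library. It rose to 169% of its control mean (log2 change 0.45, SE 0.1, adjusted p = 0.00398). Its values rest on few reads, and 1629 of its 4397 exon bases are shared with INTS8 on the opposite strand. INTS8 was lower in the knockdown, at 7.39 FPKM against 10.2 FPKM in the control (adjusted p = 0.000996). CCNE1, with 3.28, 2.99 and 2.62 FPKM in the knockdown libraries and 3.25, 3.82 and 3.55 FPKM in the control libraries, overlapped between groups and missed the threshold (log2 change -0.20, adjusted p = 0.0675). CCNE1 was called lower once knockdown replicate 1 was left out (log2 change -0.25) and after quantile normalization (log2 change -0.24).

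Licensing held the largest fall and a gene that rose. Of 9 genes 6 fell (66.7%, against 27.8% of all genes tested), CDC6 rose and MCM2 and MCM4 did not pass. CDT1 (ENSG00000167513, GRCh38 chromosome 16, 88803213 to 88809258, plus strand), the loader of MCM2-7 that cells destroy once S phase begins, had 23.6, 20.6 and 23.1 FPKM in the knockdown libraries and 42.8, 43.6 and 46.1 FPKM in the control libraries. The groups lie far apart, with the knockdown mean at 50.8% of control (log2 change -0.95, SE 0.059, adjusted p = 1.35e-06). CDC6 (ENSG00000094804, GRCh38 chromosome 17, 40287633 to 40304657, plus strand), the ATPase that works with CDT1 at the same step, had 18.1, 19.2 and 16.6 FPKM in the knockdown libraries, against 12.7, 13.1 and 13.8 FPKM in the control libraries. All knockdown values of CDC6 were above all control values (log2 change 0.42, SE 0.062, adjusted p = 0.000307). The ratio of CDC6 to CDT1, each in FPKM, was 0.765, 0.933 and 0.719 in knockdown replicates 1, 2 and 3 and 0.297, 0.301 and 0.299 in control replicates 1, 2 and 3. Both genes kept their directions and calls with a common sum (log2 change 0.57 for CDC6 and -0.79 for CDT1) and with the trend over gene length removed (log2 change 0.39 and -0.87). ORC1, the subunit of the origin recognition complex that comes and goes with the cell cycle, had 9.42, 7.18 and 7.22 FPKM in the knockdown libraries and 11.9, 11.5 and 11.2 FPKM in the control libraries. It fell to 68.7% of control without overlap (log2 change -0.50, SE 0.09, adjusted p = 0.000998).

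Within the MCM2-7 helicase the subunits had unlike values. MCM7, the most abundant of them, had 64.4, 59.9 and 61.7 FPKM in the knockdown libraries, against 87.1, 85.3 and 89.4 FPKM in the control libraries (log2 change -0.49, SE 0.045, adjusted p = 1.75e-05). MCM3 fell to 49.7 ± 2.42 FPKM in the knockdown, against 70.4 ± 1.82 FPKM in the control (adjusted p = 2.42e-05). MCM5 and MCM6 fell less, to 76% and 82.8% of control (adjusted p = 0.000203 and 0.00062), and MCM6 no longer passed with a common sum (log2 change -0.10). MCM2 had 22.9, 29.3 and 22.2 FPKM in the knockdown libraries and 26.8, 27.8 and 27.2 FPKM in the control libraries. MCM4 had 34.3, 39.8 and 34 FPKM in the knockdown libraries and 37.4, 38.1 and 37.9 FPKM in the control libraries. For both genes knockdown replicate 2 lay above all controls and the other knockdown libraries lay below them. As fitted on all libraries neither passed (log2 change -0.14 and -0.07, adjusted p = 0.186 and 0.344). Without knockdown replicate 2 both were called lower (log2 change -0.27 and -0.14), MCM4 was called lower with the length trend removed (log2 change -0.13), and with a common sum the signs turned (log2 change 0.02 and 0.09), so no direction is given for them. The FPKM of the 6 subunits summed to 210, 211 and 205 in the knockdown libraries and to 266, 270 and 269 in the control libraries. MCM7 made up 28.3% to 30.6% of that sum in the knockdown libraries and 31.6% to 33.3% in the control libraries, and MCM4 16.3% to 18.8% in the knockdown libraries and 14% to 14.1% in the control libraries.

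**Figure D4:**
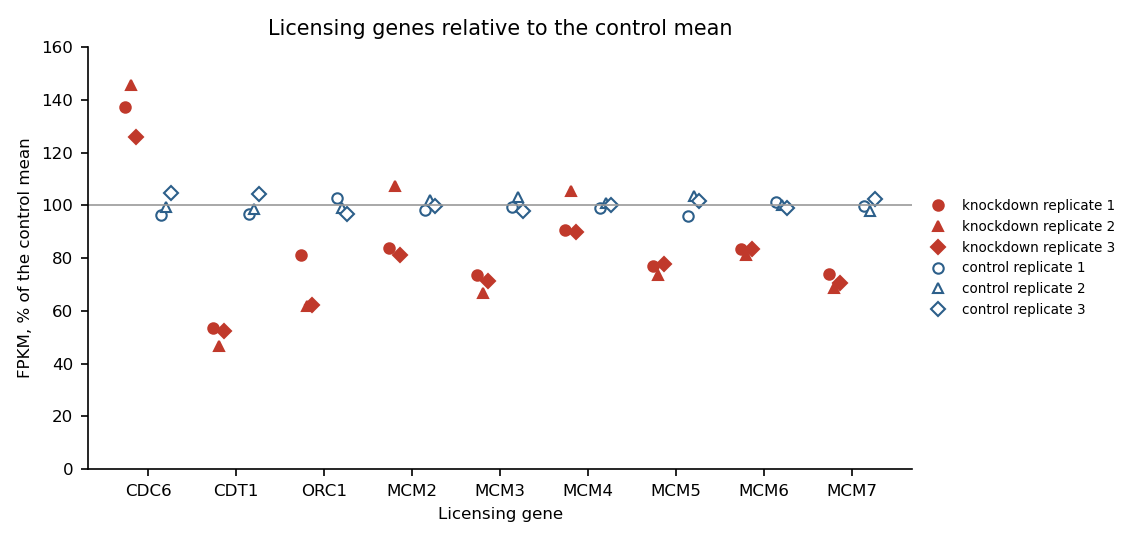
FPKM of the 9 licensing genes in each library as a percentage of the control mean of that gene, with knockdown libraries filled red left of control libraries in open blue, and a symbol for each replicate number. CDC6 lies above the control mean in all knockdown libraries, CDT1 has a knockdown mean of 50.8% of control, and for MCM2 and MCM4 knockdown replicate 2 lies apart from the other knockdown libraries.

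Of the 6 genes that turn the loaded ring into a moving helicase, 3 fell and none rose. That is 50% lower, against 27.8% of all genes tested. CDC45, which joins the ring as replication starts, had 16.6, 15.4 and 18 FPKM in the knockdown libraries, against 23.4, 24.3 and 24.2 FPKM in the control libraries. The groups were well separated (log2 change -0.50, SE 0.06, adjusted p = 7.91e-05). GINS2, a subunit of the GINS complex, had 14, 13.9 and 13 FPKM in the knockdown libraries and 17.6, 16 and 16.5 FPKM in the control libraries, also without overlap (log2 change -0.28, adjusted p = 0.00198). MCM10, which helps the helicase to start, was at 83.9% of control (adjusted p = 0.00536). GINS2 and MCM10 did not pass with a common sum (log2 change -0.12 and -0.08). GINS1, another subunit of the same complex, had 15.3, 17.7 and 15 FPKM in the knockdown libraries and 14.7, 13.2 and 14.7 FPKM in the control libraries, and its change missed the threshold (log2 change 0.16, adjusted p = 0.0788). It was called higher with a common sum (log2 change 0.32) and with the length trend removed (log2 change 0.20). The ratio of GINS2 to GINS1 was 0.785 to 0.918 in the knockdown libraries and 1.12 to 1.22 in the control libraries. GINS3 and GINS4 overlapped between groups and did not pass (log2 change -0.00 and 0.16). GINS4 ranged from 1.62 to 2.89 FPKM among knockdown libraries, and was called higher without knockdown replicate 3 (log2 change 0.30).

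Of the 7 polymerase genes 3 were lower (42.9%, against 27.8% of all genes tested) and 4 did not pass. POLD1, the catalytic subunit of polymerase delta, had 11.3, 11.8 and 9.92 FPKM in the knockdown libraries, against 17.9, 16.3 and 17.3 FPKM in the control libraries. It stood at 64.1% of control without overlap (log2 change -0.60, SE 0.068, adjusted p = 6.16e-05). POLE2, an accessory subunit of polymerase epsilon, had 6.93, 5.88 and 5.17 FPKM in the knockdown libraries and 8.84, 9.44 and 9.31 FPKM in the control libraries (log2 change -0.55, SE 0.087, adjusted p = 0.000441). The catalytic subunit POLE did not pass, with 8.9 ± 0.626 FPKM in the knockdown and 8.67 ± 0.164 FPKM in the control (log2 change 0.03, adjusted p = 0.685). POLE has 16609 exon bases in the annotation, and with the length trend removed its sign turned and it was called lower (log2 change -0.17). POLE2 relative to POLE was 0.614 to 0.791 in the knockdown libraries and 1.04 to 1.08 in the control libraries. In the polymerase alpha-primase complex, which lays down primers, POLA2 fell to 1.49 ± 0.2 FPKM in the knockdown, against 2.16 ± 0.304 FPKM in the control (adjusted p = 0.0105). POLA1, PRIM1 and PRIM2 did not pass (log2 change -0.03, 0.15 and -0.06), and PRIM1 was called higher with a common sum (log2 change 0.29) and with the length trend removed (log2 change 0.28). POLA2 shares 2012 exon bases with another annotated gene on its own strand, so its level is uncertain.

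PCNA, the ring that tethers polymerases to DNA, was the most abundant gene of the 43. PCNA (ENSG00000132646, GRCh38 chromosome 20, 5114953 to 5126626, minus strand) had 222, 203 and 225 FPKM in the knockdown libraries, against 301, 298 and 299 FPKM in the control libraries. The groups lay well apart, with the knockdown mean at 72.5% of control (log2 change -0.46, SE 0.052, adjusted p = 5.23e-05). In the clamp loader, RFC2 had 27.5, 26.4 and 26.5 FPKM in the knockdown libraries and 33.9, 35.6 and 34.4 FPKM in the control libraries (log2 change -0.36, SE 0.045, adjusted p = 0.000105). RFC4 stood at 33.4 ± 3.26 FPKM in the knockdown, against 39.2 ± 1.06 FPKM in the control (log2 change -0.23, adjusted p = 0.0138). RFC4 lost its call with a common sum (log2 change -0.07), with the length trend removed (log2 change -0.13) and without control replicate 1 (log2 change -0.21). RFC3 and RFC5 overlapped between groups, at 103% and 101% of control, and were called higher with a common sum (log2 change 0.20 and 0.17). RFC2 relative to RFC3 was 0.86 to 0.994 in the knockdown libraries and 1.15 to 1.32 in the control libraries.

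Both enzymes that finish the lagging strand fell, while the uracil glycosylase rose. FEN1, which trims the flaps of Okazaki fragments, had 37.9, 35.4 and 38.8 FPKM in the knockdown libraries, against 48, 47.9 and 44.2 FPKM in the control libraries (log2 change -0.31, SE 0.053, adjusted p = 0.000648). LIG1, the ligase that seals them, had 7.94, 8.16 and 7.81 FPKM in the knockdown libraries and 10.5, 10.1 and 10.9 FPKM in the control libraries (log2 change -0.35, SE 0.055, adjusted p = 0.000413). In both genes all knockdown libraries lay below all control libraries. UNG, which removes uracil built into DNA, had 23.3, 21.2 and 20.4 FPKM in the knockdown libraries and 17.9, 18.8 and 17.2 FPKM in the control libraries. Here the knockdown lay wholly above the control (log2 change 0.26, SE 0.06, adjusted p = 0.00449), and the change was 0.41 with a common sum. UNG relative to FEN1 was 0.527 to 0.615 in the knockdown libraries and 0.373 to 0.392 in the control libraries.

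Of the 4 nucleotide supply genes, the salvage enzyme TK1 fell and the others did not pass. That is 25% lower, near the 27.8% of all genes tested. TK1, the thymidine kinase of S phase, had 114, 98.5 and 116 FPKM in the knockdown libraries, against 156, 153 and 155 FPKM in the control libraries. It fell to 70.8% of control without overlap (log2 change -0.50, SE 0.062, adjusted p = 0.000103). RRM1, the large subunit of ribonucleotide reductase, had 31.4, 33.9 and 33.8 FPKM in the knockdown libraries and 34.5, 36.4 and 35.5 FPKM in the control libraries. RRM2, the small subunit, had 14.6, 16 and 15.1 FPKM in the knockdown libraries and 16.3, 16.5 and 16.3 FPKM in the control libraries. All knockdown values of both lay below control, but neither passed (adjusted p = 0.101 and 0.126). Without knockdown replicate 2 both were called lower (log2 change -0.12 and -0.13), and with a common sum their signs turned (log2 change 0.06 and 0.06). The ratio of RRM1 to RRM2 was 2.11 to 2.23 in the knockdown libraries and 2.11 to 2.2 in the control libraries, ranges that overlap. RRM2 shares 1077 of its 5323 exon bases with another annotated gene on its own strand, so its level and this ratio are uncertain. TYMS, thymidylate synthase, was low, with 2.09 ± 0.643 FPKM in the knockdown and 2.35 ± 0.267 FPKM in the control, and overlapped (adjusted p = 0.403). It was called lower without knockdown replicate 2 (log2 change -0.30). ENOSF1, on the opposite strand, shares 967 of the 2470 exon bases of TYMS, so the level of TYMS is uncertain.

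The 3 E2F genes did not pass. E2F1, an activator, had 20.9, 16.8 and 20.9 FPKM in the knockdown libraries, against 20.8, 21.5 and 23.2 FPKM in the control libraries. The groups overlapped (log2 change -0.16, SE 0.081, adjusted p = 0.116). E2F2, also an activator, lay at 4.14 ± 0.42 FPKM in the knockdown and 4.72 ± 0.0779 FPKM in the control (adjusted p = 0.0947), and was called lower without knockdown replicate 2 (log2 change -0.22) and after quantile normalization (log2 change -0.19). E2F8, a repressor that closes the wave of E2F transcription, was at 103% of control (adjusted p = 0.739).

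The genes that copy chromatin behind the fork changed little. CHAF1A, the large subunit of the histone chaperone CAF-1, had 19.8, 19.7 and 19.8 FPKM in the knockdown libraries and 22.5, 21.5 and 22.9 FPKM in the control libraries (log2 change -0.17, adjusted p = 0.0112). SLBP, which binds the stem loop at the end of replication-dependent histone messages, had 41.4, 41.9 and 42 FPKM in the knockdown libraries and 44.9, 45 and 46.6 FPKM in the control libraries (log2 change -0.12, adjusted p = 0.0315). Their knockdown values lay below every control library, by small amounts. With a common sum neither passed (log2 change -0.01 and 0.04), and the sign of SLBP turned. SLBP also lost its call with each single library left out except knockdown replicate 2, by quantile normalization, by removal of the length trend (log2 change 0.04) and with the replicate block (log2 change -0.12). CHAF1A lost its call without control replicate 3 (log2 change -0.15). CHAF1B, the middle subunit of CAF-1, and UHRF1, the reader of newly copied methylated DNA, did not pass (adjusted p = 0.236 and 0.624), and UHRF1 was called higher with a common sum (log2 change 0.19).

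Other genes of the same pathway, from lists of genes outside the 43, were tested in the same fit. As deposited, 27.8% of all genes tested were lower and 29.5% higher. In the replisome list 9 of 20 fell (45%) and 3 rose (15%). RPA3, a subunit of the protein that coats single-stranded DNA, fell to 7.03 ± 0.322 FPKM in the knockdown, against 12.1 ± 0.434 FPKM in the control (adjusted p = 8.11e-06). RPA1, the large subunit, fell to 85.1% of control (adjusted p = 0.00109). RFC1, the large subunit of the clamp loader, and RNASEH2B, of the nuclease that removes RNA from DNA, rose to 136% and 146% of control (adjusted p = 0.000231 and 0.000848). In nucleotide synthesis 8 of 31 fell (25.8%, near the share of all genes) and 3 rose (9.68%). DCTPP1, a nucleotide pyrophosphatase, fell to 55% of control (adjusted p = 2.43e-05). DGUOK, a mitochondrial nucleoside kinase, fell to 64.2% of control (adjusted p = 0.000211). SAMHD1, which breaks down deoxynucleotides, rose to 19.6 ± 1.65 FPKM in the knockdown, against 13.2 ± 0.643 FPKM in the control (adjusted p = 9.73e-05). In chromatin assembly 7 of 11 fell (63.6%) and 2 rose (18.2%). Among those that fell were the histone chaperones NASP and HIRA and the FACT subunit SSRP1, at 71.9%, 71% and 72.8% of control (adjusted p = 4.23e-05, 0.00148 and 7.31e-05). With a common sum, where 16.4% of all genes tested were lower and 43.4% higher, the replisome had 3 lower (15%) and 6 higher (30%). Nucleotide synthesis then had 4 lower (12.9%) and 11 higher (35.5%), and chromatin assembly 4 lower and 4 higher (36.4% each).

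Of 18 other origin factors 7 rose (38.9%, against 29.5% of all genes tested) and 3 fell (16.7%, against 27.8%). Of these origin factors 4 were higher without control replicate 1, 4 without control replicate 2 and 3 without control replicate 3, each time with 3 lower. Calls also dropped over all genes tested, of which 25.6%, 25.1% and 24.8% were higher without control replicates 1, 2 and 3. The firing factors RECQL4 and TICRR fell to 59.9% and 64.6% of control (adjusted p = 5.73e-05 and 0.000212), and ORC5, an origin recognition subunit, rose to 128% (adjusted p = 0.000708). GMNN, geminin, the inhibitor of CDT1, fell to 17.9 ± 0.576 FPKM in the knockdown, against 22 ± 0.488 FPKM in the control (adjusted p = 0.000777). The ratio of CDT1 to GMNN was 1.34, 1.17 and 1.24 in knockdown replicates 1, 2 and 3 and 1.91, 2.03 and 2.1 in control replicates 1, 2 and 3. GMNN was chosen after its values were seen, because it binds CDT1. CCNA2, the cyclin of S and G2 phase, rose to 111% (adjusted p = 0.0274). Among 14 other genes of the E2F, RB and DREAM machinery, 6 rose (42.9%) and 2 fell (14.3%). Without knockdown replicate 2 the counts were 4 higher and 3 lower, against 29% and 28.6% of all genes tested. The number higher was also 4 with any single control library left out, with quantile normalization, with no filter and with a filter at 5 FPKM. Over all genes tested 24.8% to 25.6% were higher with a control library left out. In the other settings, in the order given, 28.8%, 26.5% and 32.4% were. RB1, the retinoblastoma protein that restrains E2F, had 26, 29.8 and 25.3 FPKM in the knockdown libraries, against 16.9, 15.8 and 15.3 FPKM in the control libraries (log2 change 0.72, SE 0.067, adjusted p = 1.77e-05). Its relative RBL1 had 10.4, 11.6 and 9.98 FPKM in the knockdown libraries and 6.73, 5.85 and 6.61 FPKM in the control libraries (log2 change 0.66, adjusted p = 5.4e-05). The repressor E2F7 had 5.85, 7.49 and 6.21 FPKM in the knockdown libraries and 2.89, 3.71 and 3.51 FPKM in the control libraries (log2 change 0.78, adjusted p = 0.000117). For RB1, RBL1 and E2F7 every knockdown library exceeded every control library. With a common sum 10 origin factors were higher (55.6%) and 2 lower (11.1%), and in the E2F, RB and DREAM list 7 were higher (50%) and 1 lower (7.14%), against 43.4% and 16.4% of all genes tested.

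Of 28 genes of mitosis tested, 13 rose (46.4%, against 29.5% of all genes tested) and 4 fell (14.3%, against 27.8%). With a common sum 17 were higher (60.7%, against 43.4%) and 3 lower (10.7%, against 16.4%). With a library left out 10 to 12 were higher and 4 to 6 lower, against 24.8% to 29% and 23.9% to 28.6% of all genes tested. HMMR, a spindle protein, rose to 34.5 ± 1.07 FPKM in the knockdown, against 20.7 ± 0.429 FPKM in the control (adjusted p = 1.83e-06). AURKB, the kinase of the chromosomal passenger complex, fell to 37.3 ± 3.99 FPKM in the knockdown, against 68.4 ± 1.25 FPKM in the control (adjusted p = 7.3e-06), and SPC25, a kinetochore protein, to 61.9% of control (adjusted p = 9.3e-05). MKI67, the proliferation marker, had 29.8, 32.1 and 30.3 FPKM in the knockdown libraries and 33.2, 33 and 32.6 FPKM in the control libraries, and its change missed the threshold (log2 change -0.10, adjusted p = 0.0927). Of 46 replication-dependent histone genes 17 did not reach the level filter, and 8 of the 29 tested had a control mean below it, so the 22 called higher carry no weight as a count. H2AC6 had 45.8, 48.5 and 46.4 FPKM in the knockdown libraries, against 10.4, 9.67 and 9.25 FPKM in the control libraries (adjusted p = 4.61e-09). H2BC11 rose to 11.8 FPKM in the knockdown, against 2.21 FPKM in the control (adjusted p = 1.09e-06), and H2BC12 to 66.9 FPKM, against 30.8 FPKM in the control (adjusted p = 4.64e-07). Histone genes have near-identical copies, and their messages mostly lack a poly(A) tail, so their values also depend on how RNA was selected, which the labels do not state. Whether the lists differ from each other was not tested.

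**Figure D5:**
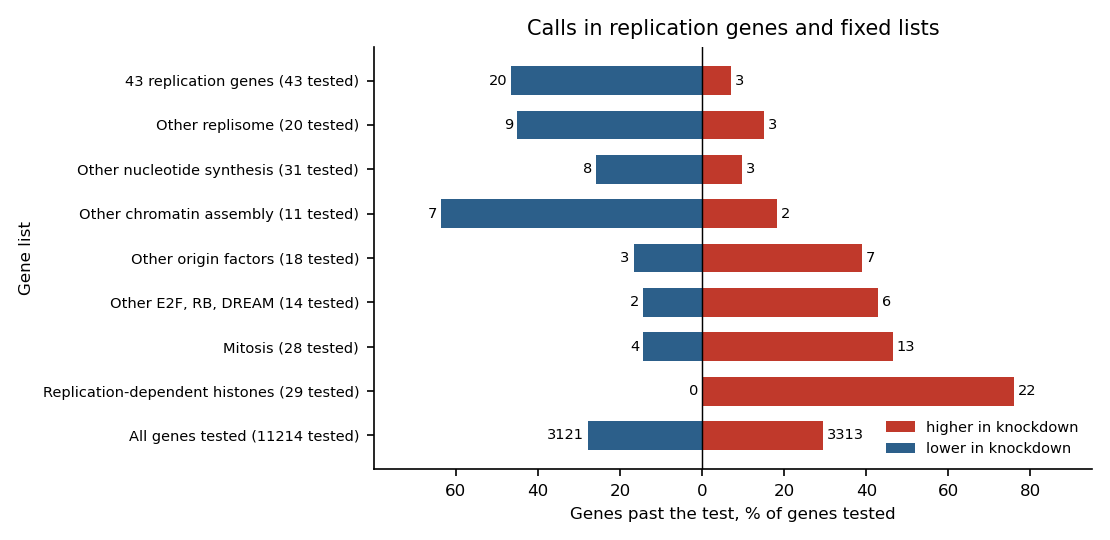
Share of tested genes called higher (red, right) or lower (blue, left) in the knockdown for the 43 replication genes, the lists of other genes and all genes tested, with the number of calls at each bar. Replication genes show 20 lower and 3 higher, mitosis genes 4 lower and 13 higher, and the histone bar holds genes past the level filter.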

How the data were processed

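RNA was isolated with TRIzol and turned into libraries with a TruSeq RNA kit, per the labels' protocols. The authors deposited FPKM values for 12829 genes in 6 libraries, each gene with a mean of at least 0.1 FPKM. HISAT2 2.2.1 and GRCh38 were used per the submitters' processing notes. The counter, annotation and strand setting were not given in the sources used here, so genes that overlap on opposite strands cannot be told apart with certainty. FPKM depends on the library total and on the gene length used, and implied lengths lay within 10% of GENCODE v29 exon unions for 37 of the 43 genes.

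Knockdown was compared with control by limma 3.58.1 (R 4.3.3), with a mean-variance trend, on log2(FPKM + 1) of the 11214 genes averaging 0.5 FPKM or more. P-values are two-sided and adjusted by Benjamini-Hochberg over all these genes, with a threshold of 0.05. Fold changes on this scale understate those of low genes. All 43 genes passed the filter. Whole reads were recovered from the steps of the values for 12828 genes, within 0.004 reads. They served for depth, for the choice of genes in the comparison of library pairs and for implied lengths, and did not enter the test of the real data. The 43 genes held 46 to 6437 reads per library, which are not independent molecules. The fit was also run on simulated data with few genes changed and equal spread in all libraries. These data differ in both, so that run does not measure their error rate. Alternatives were pseudocounts of 0.1 and 0.5, no filter or one at 5 FPKM, a common sum, quantile normalization, removal of the loess trend over length (span 0.5), the replicate number as a block, and each library left out.

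The members, lists and tests were chosen with earlier results of these data known. Ratios between genes restate the values of those genes and are no further evidence. In each step, values per library are given for the 2 called genes with the largest change, the most abundant gene and genes called against the rest of their step, for E2F1, and for some further genes chosen after their values were seen. Of each other list the 3 called genes with the largest change are named, with IQGAP2, CCNA2, MKI67, RB1 and RPA1 whatever their p. A further gene of that rule is not reported here.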

Additional observations from a re-analysis of the deposited data

How the results depend on the processing

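Among the 43 genes, 20 were lower and 3 higher, against 27.8% lower and 29.5% higher over all genes tested. Leaving out each library gave 18 to 26 of the 43 lower and 3 to 4 higher, against 23.9% to 28.6% and 24.8% to 29%. A common FPKM sum gave 14 lower and 8 higher, against 16.4% and 43.4%. Removal of the length trend gave 20 lower and 5 higher, against 28.4% and 28.3%. The other settings gave 19 to 21 lower and 2 to 3 higher, against 25.2% to 33.5% and 26.5% to 32.4%. The filter at 5 FPKM left 33 of the 43 to be tested. Steps of replication with more genes lower than higher numbered 7 of 9, against 4 with a common sum and 6 to 8 with a library left out. Of the 7 lists of other genes 3 had more lower than higher, against 0 with a common sum. With the replicate number as a block, 19 genes were lower and 3 higher, SLBP losing its call, against 27% and 28.2% of all genes tested. Deviations of libraries that share a number correlated at -0.104, -0.055 and 0.056 for numbers 1, 2 and 3. Those of libraries with unlike numbers correlated at -0.12 to 0.148, so no pairing by number was seen. With 3 libraries per group these values cannot exclude it. The planned voom fit with TMM scaling on recovered reads is left out because the deposited values are FPKM. The sign turned in 22 of 592 refits of single genes, and of the genes it touched only SLBP had passed as deposited. With a common sum the turned log2 changes were 0.02 for MCM2, 0.09 for MCM4, 0.13 for GINS3, 0.10 for POLA1, 0.08 for PRIM2, 0.06 for RRM1, 0.06 for RRM2, 0.01 for CHAF1B and 0.04 for SLBP. With the length trend removed they were -0.17 for POLE and 0.04 for SLBP. With a library left out the log2 change spanned -0.04 to 0.09 for E2F8, -0.05 to 0.04 for GINS3, -0.05 to 0.00 for POLA1, -0.02 to 0.07 for POLE, -0.01 to 0.08 for RFC3, -0.02 to 0.04 for RFC5 and -0.01 to 0.08 for UHRF1. The cause was not tested. CCNE1, CCNE2 and TYMS had under 100 reads in some library, which limits their precision.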
